A study of Mus musculus with 8 samples.

Results

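The genes described here are the 10 genes of MHC class I antigen presentation and the immunoproteasome in primary murine articular chondrocytes: the heavy chains H2-K1 and H2-D1, the light chain B2m, the peptide transporter chains Tap1 and Tap2, the loading factor Tapbp, the immunoproteasome subunits Psmb8, Psmb9 and Psmb10, and the transactivator Nlrc5. They were chosen by function, with earlier results of these data known, and were matched exactly by gene symbol. They make up 10 of the 54658 symbols in the table of read counts. The cells came from the femoral head cartilage of wild-type mice aged 3 weeks and were cultured in high-glucose medium with serum. RNA-Seq was performed on 4 samples treated with IL-1β, a proinflammatory cytokine, at 1 ng/mL for 24 h, and on 4 samples treated with vehicle for 24 h. The comparison asks how these genes respond to an inflammatory stimulus associated with osteoarthritis. Nothing in the sources used here says that the samples of a group came from separate animals or cultures, so the p-values measure the spread between these samples, which may be technical.

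MHC class I molecules display fragments of intracellular proteins on the cell surface, where CD8+ T cells inspect them. The proteasome cuts proteins into peptides, the Tap1/Tap2 transporter carries the peptides into the endoplasmic reticulum, and tapasin, the product of Tapbp, helps to load them onto a heavy chain paired with β2-microglobulin. In cells exposed to interferon-γ the subunits encoded by Psmb8, Psmb9 and Psmb10 take the places of the constitutive catalytic subunits Psmb5, Psmb6 and Psmb7, and NLRC5 drives transcription of most class I genes. NF-κB, which IL-1β activates, and interferon regulatory factors also bind the promoters of class I genes.

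Depth ranged from 10992355 to 17456063 counts per sample, and 3 reads corresponded to 0.173 to 0.270 counts per 1000000 counts of a TMM-scaled library (CPM). The noncoding RNA Gm26917 took 13.2% to 14.6% of the counts in each sample. All 10 listed chondrocyte markers, among them Col2a1 and Acan, were measured above the filter, and they summed to 16160 to 16784 CPM with vehicle and to 4195 to 4608 CPM with IL-1β, so the labelled cell type was seen in both groups. All 10 of these markers fell by more than 2-fold, with a median log2 fold change of -1.81. Because these are bulk samples, a change in the share of a cell type and a change in RNA per cell cannot be told apart.

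Promoter sequences of 300 bases (250 before to 50 after the start site) came from RefSeq (build GRCm38.p6) for 8 of the 10 genes, those other than Tap2 and Nlrc5. The stretches below are shown because binding sites of NF-κB and of interferon regulatory factors are the textbook control elements of this pathway. Each line gives 30 bases, 5′ to 3′ on the strand of the gene, with the motif match in capitals. For H2-K1 and H2-D1 the capitals mark GGGATTCCC, the core of the NF-κB element of class I promoters. For B2m they mark a match on the opposite strand to TTCNNTTTC, from the interferon-stimulated response element, and then a match on the opposite strand to the NF-κB consensus.
H2-K1, class I NF-κB core: cccagggctgGGGATTCCCcatctccacag
H2-D1, class I NF-κB core: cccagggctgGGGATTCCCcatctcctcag
B2m, interferon response element: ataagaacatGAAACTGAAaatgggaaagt
B2m, NF-κB consensus: actgaaaatgGGAAAGTCCCtttgtaacct

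The H2-K1 window lies at chr17:34000438-34000467 on the minus strand, and its motif starts 110 or 124 bases upstream of the start site, depending on which of the 2 RefSeq entries is used. The H2-D1 window lies at chr17:35262914-35262943 on the plus strand, with the motif 170 bases upstream. The B2m windows lie at chr2:122147538-122147567 and chr2:122147551-122147580 on the plus strand, with motifs 139 and 126 bases upstream.

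Both strands of all 32851 RefSeq promoter entries of this length were searched. GGGATTCCC stood in 116 entries (0.353%), among them both entries of H2-K1 and that of H2-D1, and the class I genes H2-Q6 and H2-Q7. The NF-κB consensus, which overlaps GGGATTCCC at these sites, stood in 8.46% of promoters and in 3 of the 8 genes (H2-K1, H2-D1 and B2m). TTCNNTTTC stood in 8.56% of promoters and, of the 8 genes, in B2m. CCAAT, the sequence bound by NF-Y, stood in 37.4% of promoters and in 6 of the 8 genes. The Tapbp promoter held CCAAT at 2 places and none of the other patterns given here, and the Psmb10 promoter held none of them. The start sites of Tap1 and Psmb9, which are transcribed away from each other, lie 226 bases apart, so that their promoter windows overlap. Their CCAAT matches are the same bases, so that this site was counted for both genes. A match describes letters in a window and not binding.

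Differential expression was tested with edgeR over the 14404 genes with more than 1 CPM in at least 4 samples, and a gene passed when its Benjamini-Hochberg adjusted p was below 0.05. Of the 10 genes, 8 reached the filter, since Psmb8 and Psmb9 were too low. H2-K1, H2-D1, B2m and Tapbp rose with IL-1β, which is 4 of the 8 tested, beside 20.4% of all genes tested. Tap1 fell, 1 of the 8, where 19.8% of all genes tested fell. Tap2, Psmb10 and Nlrc5 did not pass, so that 5 of the 8 passed in either direction, beside 40.2% of all genes tested. A differentially expressed gene (DEG) had in addition to change more than 2-fold, and Tapbp was the 1 gene of the 8 to do so, where 2.86% of all 14404 genes tested were DEGs upward and 5.21% were DEGs in either direction. In the 4 genes that rose, every IL-1β value exceeded the vehicle values, and 18.7% of all 14404 genes tested showed this. The median log2 fold change of the 8 tested genes was 0.37, against -0.0012 over all genes tested. Summed over the 10 genes, the level was 572 to 592 CPM with IL-1β and 359 to 375 CPM with vehicle.

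**Figure D1:**
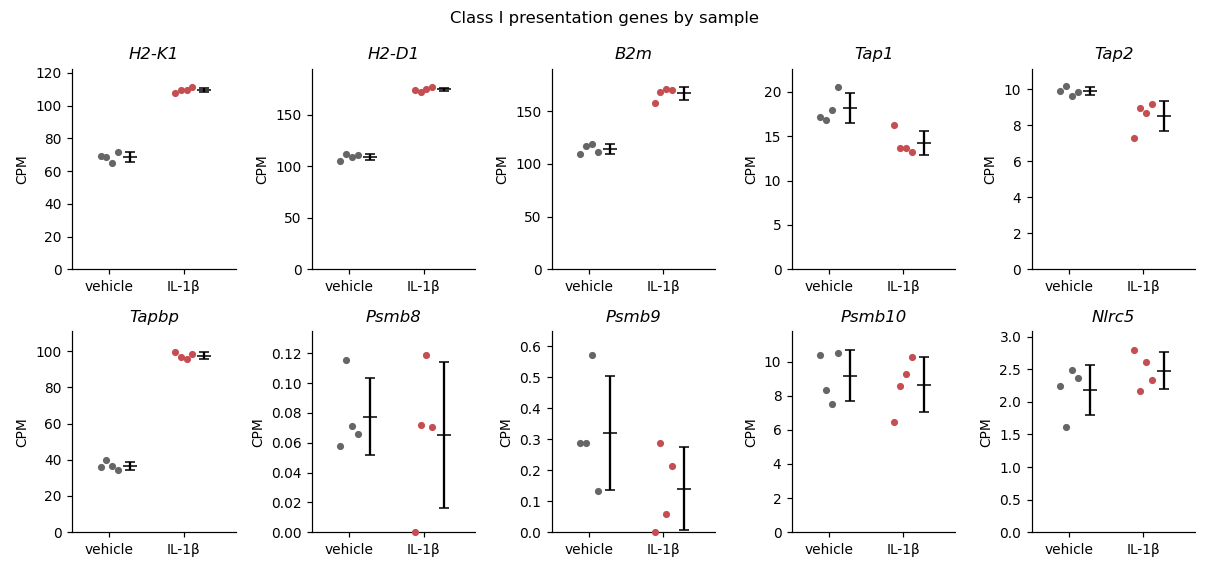
CPM of the 10 genes in each sample (vertical axes from 0, each gene on its own scale), with vehicle in grey and IL-1β in red; the bar beside the points is the mean ± SD of 4 samples. The IL-1β points lie above all vehicle points for H2-K1, H2-D1, B2m and Tapbp and below them for Tap1 and Tap2, while Psmb8 and Psmb9 stay under 0.6 CPM in every sample.

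H2-K1 and H2-D1 encode the classical class I heavy chains. H2-K1 (chr17:33996017-34000347, minus strand, GRCm38) was at 108, 109.8, 109.8 and 111 CPM in the IL-1β samples and at 69.0, 68.9, 64.8 and 71.8 CPM in the vehicle samples. The groups did not overlap, and the spread within each group was small beside the gap. The means were 109.7 ± 1.44 and 68.6 ± 2.89 CPM (SD, n = 4 each), a 1.6-fold rise with a log2 fold change of 0.68 (SE 0.0369, 95% interval 0.60 to 0.75, edgeR adjusted p = 4.1e-15).

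H2-D1 (chr17:35262730-35267499, plus strand) was at 174, 173, 175 and 177 CPM with IL-1β and at 105, 112, 109 and 111 CPM with vehicle. The groups did not overlap, and each varied by less than 7 CPM. Its log2 fold change was 0.68 (SE 0.0302, interval 0.62 to 0.74, edgeR adjusted p = 3.56e-17). Some sequence is shared between the heavy chain genes: 8.79% of the 50-base windows of the longest coding transcript of H2-K1 and 14.3% of those of H2-D1 also occur in a transcript of another gene, and how reads with several matches were counted is not given in the sources used here. On the scale of transcripts per 1000000 transcripts (TPM), which divides by gene length, the H2-K1 to H2-D1 ratio was 0.621 ± 0.00732 with IL-1β and 0.621 ± 0.0274 with vehicle (SD, n = 4 each), with a difference in mean log2 ratio of -0.00034 (exact two-sided permutation test, p = 1.0).

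B2m encodes β2-microglobulin, the light chain that pairs with class I heavy chains. B2m (chr2:122147686-122153083, plus strand) was at 157, 168, 171 and 169.8 CPM with IL-1β and at 109, 117, 119 and 112 CPM with vehicle. The lowest IL-1β sample, replicate 1, still lay far above the highest vehicle sample. The log2 fold change was 0.55 (SE 0.034, interval 0.48 to 0.62, edgeR adjusted p = 6.75e-14), a 1.47-fold rise.

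The ratio of the summed heavy chains to B2m, in TPM, was 0.595, 0.557, 0.553 and 0.564 with IL-1β and 0.531, 0.515, 0.486 and 0.543 with vehicle. All 4 IL-1β ratios lay above all 4 vehicle ratios, by a factor of 1.09 between means of 0.567 ± 0.0191 and 0.519 ± 0.0247 (SD, n = 4 each). The exact two-sided permutation p was 0.0286, the smallest that 4 against 4 samples can give. It became 0.114 after Benjamini-Hochberg adjustment over the 4 ratios tested, so that the difference did not pass. Where only 1 of the 4 ratios separates the groups, no adjusted p under 0.05 can be reached. The adjusted test therefore could not decide this difference.

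Tapbp encodes tapasin, which bridges the transporter and the heavy chain during peptide loading. Tapbp (chr17:33915899-33929292, plus strand) was at 99.4, 96.5, 95.4 and 98.6 CPM with IL-1β and at 35.8, 39.8, 36.7 and 34.6 CPM with vehicle. The IL-1β samples lay within 5 CPM of each other and above 2 times the highest vehicle sample. The fold change was 2.65 (log2 1.41, SE 0.0433, interval 1.32 to 1.49, edgeR adjusted p = 4.97e-21), and a test against a 2-fold change (edgeR glmTreat) gave an adjusted p of 3.04e-09. Of the exon bases of Tapbp, 29.0% overlap Zbtb22 or Gm19412, and whether counting used strand is not given in the sources used here. Of its 50-base windows, 21.0% occur in transcripts of other genes. Zbtb22 differed by 0.13 on the log2 scale (39.0 with IL-1β, 35.6 CPM with vehicle), and Gm19412 had 1 read in all samples together.

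Tap1 and Tap2 encode the 2 chains of the transporter that carries peptides into the endoplasmic reticulum. Tap1 (chr17:34187553-34197225, plus strand) was at 16.2, 13.7, 13.7 and 13.2 CPM with IL-1β and at 17.1, 16.9, 18.0 and 20.6 CPM with vehicle. The groups did not overlap, although IL-1β replicate 1 lay within 1 CPM of the lowest vehicle sample. Tap1 fell to 0.78 of the vehicle level (log2 fold change -0.36, SE 0.083, interval -0.53 to -0.19, edgeR adjusted p = 0.000862), opposite in direction to H2-K1, H2-D1, B2m and Tapbp.

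Tap2 (chr17:34203527-34216321, plus strand) was at 7.30, 8.94, 8.67 and 9.15 CPM with IL-1β and at 9.86, 10.2, 9.63 and 9.86 CPM with vehicle. The groups did not overlap, and 18.2% of all 14404 genes tested were lower with IL-1β without overlap. The change in Tap2 did not pass (log2 fold change -0.21, SE 0.0971, interval -0.41 to -0.0076, edgeR adjusted p = 0.0934). The Tap1 to Tap2 ratio in TPM was 1.17 ± 0.246 with IL-1β and 1.27 ± 0.129 with vehicle (SD, n = 4 each), with overlapping samples (log2 difference -0.13, exact two-sided permutation p = 0.429, adjusted 0.858). Of the exon bases of Tap2, 18.5% overlap Gm15821 or Gm20496, which together had 7 reads in the 8 samples.

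**Figure D2:**
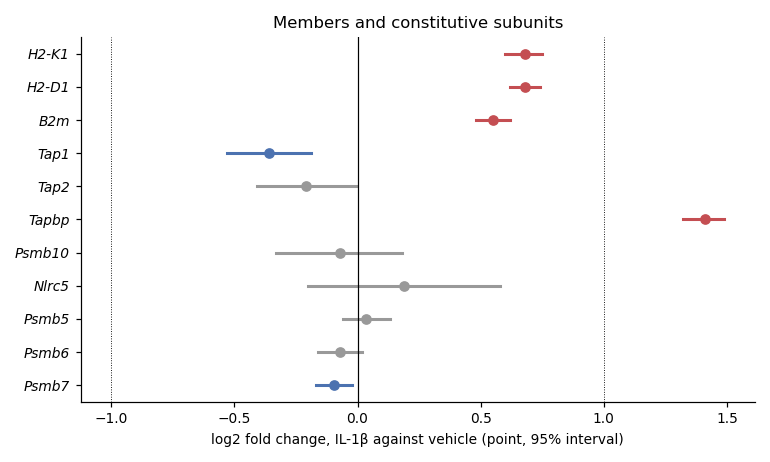
Log2 fold change of IL-1β against vehicle (horizontal axis) with its 95% interval for the 8 tested genes and for the constitutive subunits Psmb5, Psmb6 and Psmb7; red passed the test upward, blue downward, grey did not pass, and dotted lines mark a 2-fold change. Tapbp alone lies past a dotted line, at 1.41, and the intervals of Psmb10, Nlrc5, Psmb5 and Psmb6 include 0.

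Of the immunoproteasome subunits, Psmb8 and Psmb9 were near the limit of detection in both groups. Psmb8 (chr17:34197721-34201454, plus strand), which encodes the chymotrypsin-like subunit, had 0, 1, 2 and 1 reads with IL-1β and 1, 2, 1 and 1 reads with vehicle. No sample exceeded 3 reads, so that the main fit gives no fold change and a difference was not detectable at this depth. Psmb9 (chr17:34181987-34187764, minus strand), which replaces the caspase-like subunit, had 0, 4, 1 and 3 reads with IL-1β and 5, 5, 8 and 2 with vehicle. The groups overlapped, with 8 reads in all against 20, and of its exon bases 5.79% overlap Tap1.

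Psmb10 (chr8:105935735-105938444, minus strand), the trypsin-like member of the set, was above the filter. It was at 6.49, 8.58, 9.27 and 10.3 CPM with IL-1β and at 10.4, 8.32, 7.49 and 10.5 CPM with vehicle. The samples overlapped across nearly their whole range. The log2 fold change was -0.072 (SE 0.124, interval -0.33 to 0.18, edgeR adjusted p = 0.696), and without IL-1β replicate 1 it was 0.026.

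Per length, the constitutive subunits that these replace stood well above them, at 241 ± 22.2 TPM for Psmb5, 155 ± 13.7 TPM for Psmb6 and 75.4 ± 2.93 TPM for Psmb7 with vehicle (SD, n = 4 each). Psmb5 was at 80.3, 77.9, 82.1 and 76.7 CPM with IL-1β and at 78.7, 84.7, 74.2 and 71.6 CPM with vehicle. Psmb6 was at 97.2, 92.3, 102 and 104 CPM with IL-1β and at 113, 102, 103 and 97.0 CPM with vehicle. For both, the groups overlapped and neither passed (log2 fold changes 0.034 and -0.071, edgeR adjusted p = 0.604 and 0.204). Without vehicle replicate 4 Psmb5 was at -0.0016, and without vehicle replicate 1 Psmb6 was at -0.028. Psmb7 was at 87.8, 83.9, 85.1 and 88.6 CPM with IL-1β and at 93.5, 93.2, 90.9 and 91.0 CPM with vehicle. Psmb7 did pass, falling to 0.936 of the vehicle level without overlap (log2 fold change -0.095, SE 0.0352, edgeR adjusted p = 0.0311), but not under DESeq2 (adjusted p = 0.0753). Leaving out IL-1β replicate 2 or 3, or vehicle replicate 1 or 2, also ended the call, with an adjusted p of up to 0.101. Of the exon bases of Psmb7, 11.8% overlap Nek6, which had a log2 fold change of 1.33. Of the 50-base windows, 28.1% of those of Psmb7 and 57.1% of those of Psmb5 also occur in a transcript of another gene.

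Per length, Psmb8 made up 0.0296% of the sum of Psmb8 and Psmb5 with IL-1β and 0.0331% with vehicle, over the pooled samples. For Psmb9 with Psmb6 the pooled shares were 0.0739% and 0.154%. In a single sample, 3 reads would have been a share of up to 0.111% for Psmb8 and 0.142% for Psmb9. The Psmb10 to Psmb7 ratio in TPM was 0.148, 0.205, 0.218 and 0.233 with IL-1β and 0.223, 0.179, 0.165 and 0.232 with vehicle. These overlapped, with a difference in mean log2 ratio of 0.0045 (exact two-sided permutation p = 0.971, adjusted 1.0).

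**Figure D3:**
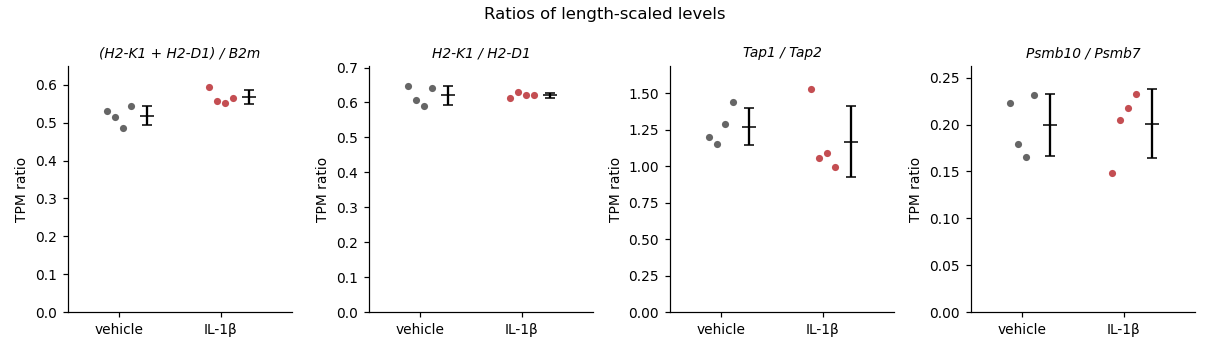
Ratios of TPM in each sample (vertical axes from 0), with vehicle in grey and IL-1β in red; the bar beside the points is the mean ± SD of 4 samples. The heavy chain to B2m ratio separates the groups, at 0.553 to 0.595 against 0.486 to 0.543, and the other ratios overlap.

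Nlrc5 (chr8:94434356-94527272, plus strand) encodes the class I transactivator. It was at 2.79, 2.16, 2.61 and 2.34 CPM with IL-1β and at 2.25, 1.62, 2.496 and 2.37 CPM with vehicle. The groups overlapped, with vehicle replicate 2 the lowest of the 8. The log2 fold change was 0.19 (SE 0.188, interval -0.20 to 0.58, edgeR adjusted p = 0.469), an interval that holds both a small fall and a rise of 0.58. Without vehicle replicate 2 it was 0.063.

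Per length, the 10 genes covered more than 3 orders of magnitude. The deposited lengths exceed the longest coding transcript unevenly. They are 3421 against 1160 bases for Psmb7, 5476 against 2953 for Tap1 and 860 against 860 for B2m. Levels, their order and the size of ratios between genes depend on this choice of length. In the vehicle samples B2m led at 371 ± 18.7 TPM (SD, n = 4), a level above that of 98.2% of the genes tested. H2-D1 followed at 119 ± 3.06 TPM, H2-K1 at 73.6 ± 2.38 TPM and Tapbp at 28.3 ± 2.19 TPM. Psmb10 lay at 15.04 ± 2.35 TPM, Tap1 at 9.25 ± 0.61 TPM and Tap2 at 7.31 ± 0.261 TPM, and Nlrc5 at 0.719 ± 0.126 TPM was above 2.95% of the genes tested. Neighbours in this order did not overlap in the vehicle samples, except Psmb9 (0.246 ± 0.143 TPM) and Psmb8 (0.0794 ± 0.027 TPM) at its end. With IL-1β the mean levels were 525 TPM for B2m, 184 TPM for H2-D1, 114 TPM for H2-K1 and 72.8 TPM for Tapbp, in the same order.

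**Figure D4:**
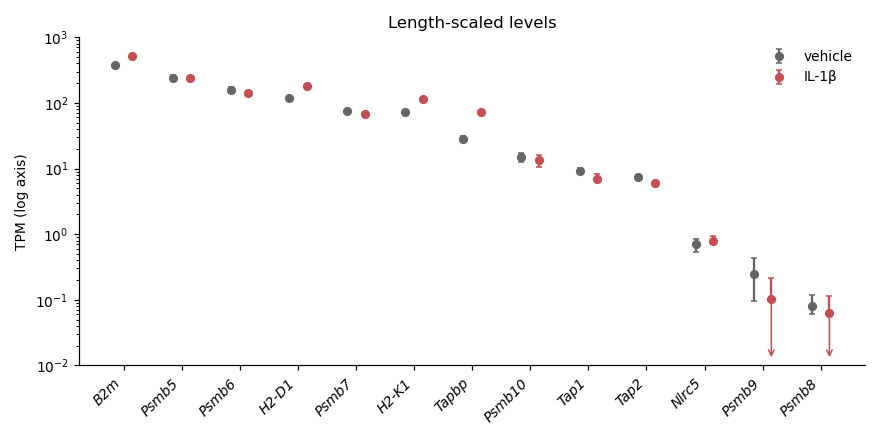
TPM on a log axis for the 10 genes and Psmb5, Psmb6 and Psmb7, ordered by the vehicle level, with vehicle in grey and IL-1β in red; points are means of 4 samples, bars run from the lowest to the highest sample, and an arrow marks a lowest sample at 0. B2m, at 371 TPM with vehicle, and Psmb8, at 0.0794 TPM, are the ends of the order.

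Of the rest of the class I pathway, 7 peptide loading partners and aminopeptidases were tested, of which 2 rose, 4 fell and 1 did not pass, beside 20.4% of all 14404 genes tested that rose and 19.8% that fell. They had a median log2 fold change of -0.092. Calr, which encodes the chaperone calreticulin of the loading complex, fell from 625 to 470.3 CPM (log2 fold change -0.41, edgeR adjusted p = 5.55e-12). Erap1, an aminopeptidase that trims peptides in the endoplasmic reticulum, rose from 22.5 to 26.0 CPM (log2 fold change 0.20, edgeR adjusted p = 0.0119).

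The proteasome genes are read beside the same shares of all genes tested (20.4% rose and 19.8% fell). Of 11 other subunits of the 20S core, 0 rose and 4 fell, with Psmb3 (log2 fold change -0.19) and Psmb1 (-0.16) the largest. Of 18 genes of the 19S regulatory particle, 2 rose, Psmd8 (0.26) and Psmd11 (0.24), and 5 fell. Of 9 activator and assembly genes, 1 rose and 2 fell. The one that rose was Psme1, which encodes a chain of the PA28 activator. Psme1 was at 10.5, 10.96, 12.2 and 11.1 CPM with IL-1β and at 6.46, 7.11, 7.06 and 9.004 CPM with vehicle. These did not overlap (log2 fold change 0.61, SE 0.106, edgeR adjusted p = 2.87e-05). Its partner chain Psme2 was at 24.2 CPM with IL-1β, against 22.04 CPM in the vehicle samples, and did not pass (log2 fold change 0.14, adjusted p = 0.073), and Psmg3, an assembly chaperone, fell (log2 fold change -0.26, adjusted p = 0.0318).

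Other class I and class I-like heavy chain genes were mostly low. Of 21 in the table, 9 were tested and 7 had at most 3 reads in every sample. Of the 9, 6 rose, 0 fell and 3 did not pass, beside 20.4% and 19.8% of all genes tested that rose and fell, and the median log2 fold change was 0.33. The DEG among them was H2-T23, which encodes the nonclassical molecule Qa-1. H2-T23 was at 1.26, 1.30, 1.31 and 1.49 CPM with IL-1β and at 0.692, 0.693, 0.856 and 0.329 CPM with vehicle, from 5 to 22 reads a sample (log2 fold change 1.05, SE 0.283, edgeR adjusted p = 0.00345). The others that rose, named here after their values were seen, were H2-Q7 (0.99), H2-Q4 (0.78), Hfe (0.65), Fcgrt (0.33) and H2-T22 (0.32). Between 29.8% and 44.7% of the 50-base windows of H2-T23, H2-Q7, H2-Q4 and H2-T22 occur in transcripts of other genes, so that their counts are uncertain. H2-T23 reached the filter only through its IL-1β samples, and H2-Q7 nearly so (0.635 to 1.16 CPM with vehicle). The filter thus favoured a rise in these genes. With CPM above 1 required in all samples, 4 genes of this list rose.

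Class II genes, which present extracellular antigen, were measured beside them. Of 11 in the table, 5 were tested, of which 2 rose, 0 fell and 3 did not pass, beside the same shares of all genes tested. Those that did not pass, named here after their values were seen, were H2-Eb1 (log2 fold change 0.20), H2-DMa (0.12) and H2-DMb1 (-0.16). H2-Aa was under the filter, with 3 reads in all with IL-1β and 8 with vehicle. H2-Ab1 rose from 5.70 to 12.4 CPM (log2 fold change 1.12, SE 0.098, edgeR adjusted p = 1.5e-10). Cd74, the invariant chain, named here after its values were seen, rose by 0.87 on the log2 scale (adjusted p = 0.000648). Ciita, the class II transactivator, was under the filter, with 5, 6, 9 and 12 reads with IL-1β and 15, 9, 7 and 7 with vehicle.

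Of 16 tested genes for factors that act at class I promoters, 4 rose, 2 fell and 10 did not pass, with a median log2 fold change of 0.016. The 6 that passed stand beside 40.2% of all genes tested, a like share. Nfkb1, the NF-κB p105/p50 subunit, was at 144, 149.9, 149 and 148 CPM with IL-1β and at 79.6, 78.2, 80.2 and 81.9 CPM with vehicle. Nfkb1 rose without overlap (log2 fold change 0.89, SE 0.0324, edgeR adjusted p = 2.82e-19), and Rela, which encodes p65, rose by 0.42 (adjusted p = 2.16e-10). Irf1, an interferon-inducible activator of class I genes, rose from 8.55 to 10.4 CPM (log2 fold change 0.29, adjusted p = 0.0218). Rfx5, of the complex that recruits NLRC5, was at 9.40 against 8.22 CPM and did not pass (log2 fold change 0.20, edgeR adjusted p = 0.126). The 2 genes that fell, named here after their values were seen, were Nfyb (log2 fold change -0.34, adjusted p = 1.53e-05) and Nfya (-0.18, adjusted p = 0.000672), which encode chains of NF-Y.

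The listed interferon ligands, Ifng, Ifnb1, Ifna4 and Ifnk, had 0 reads in all 8 samples, which allows up to 0.173 to 0.270 CPM per sample. Other interferon ligands were not examined. The 4 receptor chains Ifnar1, Ifnar2, Ifngr1 and Ifngr2 rose, beside 20.4% of all genes tested, and Ifnar2 was the DEG among them (41.8 against 20.1 CPM, log2 fold change 1.06, SE 0.0554, edgeR adjusted p = 1.44e-15).

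**Figure D5:**
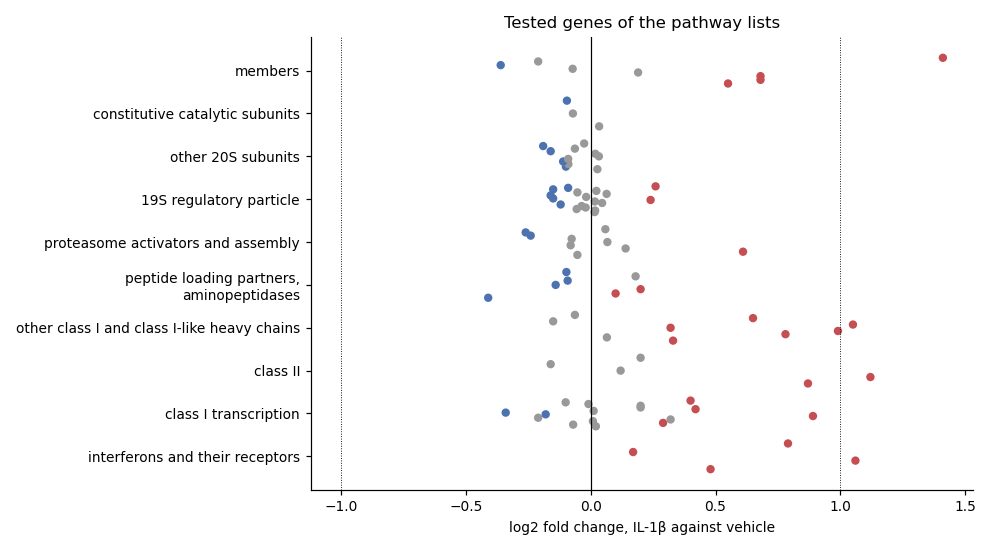
Log2 fold change (horizontal axis) of every tested gene in the 10 genes and the 9 related lists, one list per row and one point per gene; red passed the test upward, blue downward, grey did not pass, and dotted lines mark a 2-fold change. The proteasome rows sit between -0.26 and 0.61, the 4 interferon receptor points lie at 0.17 to 1.06, and the 10 genes run from -0.36 to 1.41.

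Markers of other cell types were measured in the same samples. Of 10 macrophage and leukocyte markers 4 had at most 3 reads in every sample and 3 were tested, and Cd14 (log2 fold change 1.86) and Cd68 (0.67) rose while Lyz2 fell (-0.60). Their sum was 30.1 to 34.1 CPM with IL-1β and 15.2 to 17.5 CPM with vehicle, while Ptprc, which encodes the pan-leukocyte protein CD45, had 8 and 7 reads in all. Of 4 dendritic cell markers 1 was tested, and Zbtb46 did not pass (log2 fold change -0.22), with sums of 8.44 to 11.6 and 10.9 to 13.0 CPM. The 6 T and B cell markers summed to at most 0.475 CPM in a sample, with Cd3e and Ms4a1 at 0 reads throughout, and the 4 endothelial markers to at most 1.25 CPM. Of 5 fibroblast and synovial markers, Pdgfra rose (0.58), Col1a2 fell (-1.10) and Col1a1 did not pass, with sums of 200 to 215 CPM with IL-1β and 292 to 301 CPM with vehicle. The part of these cells in the changes above was not tested.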

How the data were processed

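RNA-Seq was measured in 8 samples of primary murine articular chondrocytes (4 IL-1β, 4 vehicle, grouped by the treatment label). After trimming with cutadapt, the authors used STAR (2.5.4 in the methods, 2.4.2a in the submitters' processing notes) for alignment to mm10, with the GENCODE vM20 annotation, and featureCounts (subread 1.6.3) for quantification. They deposited unscaled counts by gene symbol, and the authors gave a gene length in bases (unit: other) beside them. Whether these counts precede or follow the RUVseq batch correction in the methods is not given in the sources used here.

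The counts were tested in R 4.3.3 with edgeR 4.0.16 (TMM, quasi-likelihood test, treatment as the only term) over genes with CPM above 1 in at least 4 samples, with Benjamini-Hochberg adjustment over all genes tested. edgeR took the place of the DESeq2 fit of the methods, which was an alternative (1.42.0). DEGs had an absolute log2 fold change above 1 and adjusted p under 0.05. TPM was computed here from the counts and the deposited lengths, so that levels, shares and ratios between genes depend on these lengths. The 6 TPM ratios planned were to be tested by exact two-sided permutation (scipy 1.17.1); Psmb8 to Psmb5 and Psmb9 to Psmb6 could not be tested because of a 0 count, so 4 were adjusted. The members and lists were chosen with earlier results of these data known. The genes named are the members, Psmb5, Psmb6 and Psmb7, the DEGs of each related list or, without one, its 2 largest passing changes, and Psme1, Psme2, Irf1, Rfx5 and Ciita; 1 further item is not reported here. Of the listed class I-like genes, H2-L, H2-Q8, H2-Q9 and H2-T9 were not analysed here.

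Positions, exon overlaps and shared windows were computed on GRCm38 with GENCODE vM21, and promoters were RefSeq's, whose start sites can differ. Between 10992355 and 17456063 counts per sample limit the precision of low genes. Libraries of one group differed beyond sampling noise, so no 2 were counted as 1. Same-numbered samples of the 2 groups did not deviate together (r from -0.0699 to 0.0416) and were not treated as pairs. In simulated data of 14404 genes for IL-1β against vehicle, edgeR recovered 82.5% of genes changed by 0.5 on the log2 scale, 97% at 1 and 100% at 1.5. It made 10 false calls. Only 200 genes were changed there, a smaller share than the 40.2% that passed in the data. Genes of the lowest counts were not among the 200, so that these rates do not cover them. The alternatives were DESeq2, other scalings and filters, a replicate block, 1 RUVs factor, glmTreat, each sample left out and, chosen after seeing the data, Gm26917 left out of the library sizes.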

Additional observations from a re-analysis of the deposited data

Results flagged for a closer look

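H2-Ab1, the class II gene, was at 5.21 CPM in vehicle replicate 3, apart from the other 3 vehicle samples at 5.83 to 5.91 CPM. Its gap to the nearest of them was 0.876 of the range of the group, above Dixon's critical value for 4 samples. It was the 1 group singled out of 48 tested, where chance alone gives about 1 in 20, or 2.4, and the value lies on the side away from the IL-1β samples.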

How the results depend on the processing

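The members that passed (4 higher, 1 lower) and the 1 DEG among them were the same in number under DESeq2, both other scalings, both other filters, 1 RUVs factor and with each sample left out; under glmTreat, which tests for more than 2-fold, the 1 call was Tapbp. The number of DEGs over all genes, 751, became 1206 with no filter on low counts and 437 under glmTreat. With no filter the median over the members was 0.054, since Psmb8 (-0.13, adjusted p = 0.966) and Psmb9 (-1.10, adjusted p = 0.309) entered it. These 2 values rest on 0 to 8 reads per sample and are not read as changes. With Gm26917 left out of the library sizes there were 789 DEGs, and the median over the members was 0.38. With the replicate number as a block there were 751 DEGs and 5643 genes passing, against 5796 without it; the block changed no member's call, and the samples share only a number. Leaving out each sample in turn gave 788 to 815 DEGs, 5350 to 5658 genes passing and medians over the members of 0.31 to 0.41. In those fits Tapbp ranged from 1.38 to 1.45, H2-K1 from 0.65 to 0.70, H2-D1 from 0.66 to 0.69, B2m from 0.53 to 0.58 and Tap1 from -0.42 to -0.29. Psmb10 ranged from -0.16 to 0.026, Nlrc5 from 0.063 to 0.25, Tap2 from -0.24 to -0.15, Psmb5 from -0.0016 to 0.082, Psmb6 from -0.10 to -0.028 and Psmb7 from -0.11 to -0.08. Log2 differences of the ratios ranged from 0.098 to 0.15 for the heavy chains to B2m and from -0.026 to 0.02 for H2-K1 to H2-D1. They ranged from -0.27 to -0.062 for Tap1 to Tap2 and from -0.082 to 0.14 for Psmb10 to Psmb7. The direction of Psmb10 turned without IL-1β replicate 1, and that of Psmb5 without vehicle replicate 4. The H2-K1 to H2-D1 and Psmb10 to Psmb7 ratios turned in several of these fits, so that neither had a stable direction. Psmb7 did not pass under DESeq2 (-0.095) or with no filter (-0.10, adjusted p = 0.0688); the cause was not tested. Of 126 counts of list genes compared under DESeq2, the other scalings and filters, the block and 1 RUVs factor (not under glmTreat, with Gm26917 left out or with a sample left out), 123 were within 1.5 times of the count given above. The other 3 were the constitutive subunits that fell, 0 under DESeq2 and with no filter, and the activators that fell, 1 under DESeq2. Genes under 1 CPM, Psmb8 and Psmb9 among them, are limited by depth.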

Other observations

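Cd1d1, a class I-like gene that presents lipids to natural killer T cells, was under the filter and was named after its values were seen. It had 16, 12, 11 and 5 reads with IL-1β and 2, 3, 2 and 3 reads with vehicle. All 4 IL-1β samples lay above all 4 vehicle samples, at 0.8288 ± 0.459 and 0.157 ± 0.0357 CPM (SD, n = 4 each). Every vehicle sample was at or under 3 reads. Of the 14404 genes tested, 18.7% showed such a separation, and the share among genes under the filter was not computed. Cd1d1 was not tested. H2-Q6, a class I gene with GGGATTCCC in its promoter, had 9, 6, 5 and 2 reads with IL-1β and 4, 5, 0 and 1 with vehicle, with overlapping groups.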
